A study of Mus musculus with 8 samples.

Results

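The mitochondrial genome of the mouse encodes 37 genes, and all 37 were found among the 57010 genes of the deposited table as the entries whose gene name begins with mt-. They are 13 mRNAs, 2 rRNAs and 22 tRNAs. The length given for each of the 37 was equal to its annotated length on chromosome M of GRCm38 in GENCODE M21. Of the mRNA genes, 12 lie on the plus strand of chromosome M and 1, mt-Nd6, lies on the minus strand. The tRNA genes are divided into 14 on the plus strand and 8 on the minus strand.

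Oxygen-induced retinopathy is a model in which high oxygen followed by room air leaves the growing retina short of vessels, and all retinas were taken from C57BL/6J mice with this condition at 17 days of age. In 4 libraries, named AAV_sh, the retinas had received a self-complementary adeno-associated virus (scAAV) against MM2P, a long noncoding RNA. The labels give this treatment as AAV KO, while the design text speaks of a knockdown. In the other 4 libraries, named AAV_NC, the retinas had received a control scAAV, so all 8 libraries share the retinopathy, the strain, the age and a viral treatment. The sources used here do not name the promoter of the virus or the cells it reached. The labels do not say whether the libraries of a group came from separate animals, so the p-values measure only the spread between these libraries.

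Mitochondrial genes are transcribed from both strands as long precursors. The tRNAs that lie between the mRNAs are cut out of these precursors, and the rRNAs and most mRNAs then receive short poly(A) tails. The 13 proteins are core subunits of the respiratory chain and of ATP synthase, which join a far larger set of nuclear-encoded subunits. Photoreceptors hold dense stacks of mitochondria in their inner segments, and the retina is among the tissues that consume the most oxygen. In bulk retina, fewer cells of a type and less RNA per cell cannot be told apart.

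The totals of estimated counts ranged from 16.03 to 20.2 M in the AAV_sh libraries and from 20.5 to 21.4 M in the AAV_NC libraries (M, 1000000 counts). The targeted transcript, listed as Mm2pr, had 0, 0, 2.0 and 20.6 estimated counts in AAV_sh libraries 1 to 4, against 1.0, 1.0, 17.0 and 7.34 in AAV_NC libraries 1 to 4. Both groups thus held libraries with hardly any Mm2pr counts, and the groups overlapped. Summed counts of lens genes were 17.6 to 172 counts per 1000000 counts of the library (CPM) in AAV_sh and 5.18 to 6.46 CPM in AAV_NC, and 7 of 14 lens markers tested were called higher in AAV_sh by edgeR's quasi-likelihood test, against 0.0434% of all genes tested. DESeq2 called 10 of these lens markers and limma 0 or 8, by pseudocount, and edgeR called 0 genes higher without AAV_NC library 1, 2 or 4, or at a mean of at least 5 TPM. The 7 lens markers called by edgeR had means of 0.050 to 0.38 TPM in AAV_NC and 7.31 to 42.5 TPM in AAV_sh. They passed the filter on low values, 1 TPM or more in at least 4 of the 8 libraries, only through AAV_sh. The count of 7 of 14 is therefore not independent of their level in AAV_sh. Of 15 rod photoreceptor markers tested none was called (1 at an unadjusted p under 0.05), 14 had a log2 fold change below 0 with a median of −0.054, and their summed level was 47325 to 53075 CPM in AAV_sh and 52035 to 53823 in AAV_NC. Among markers of the retinal pigment epithelium (9 tested), erythrocytes (5) and skeletal muscle (3), none was called, with 5, 1 and 1 at an unadjusted p under 0.05, against 5.27% of all genes tested. The 9 pigment epithelium markers went both ways, 4 above 0 and 5 below, with log2 fold changes of −0.42 to 0.53. All 5 erythrocyte markers were above 0, at 0.28 to 0.48. Their summed level was 103 to 169 CPM in AAV_sh and 79.6 to 114 in AAV_NC. Of the 3 muscle markers tested, 2 were above 0 and 1 below, at −0.094 to 1.31. The part of these marker lists in the values below was not tested.

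A stretch of chromosome 1 bears a nearly exact copy of part of the mitochondrial genome, and the table lists 7 pseudogenes from it beside the mitochondrial genes themselves. They lie on the minus strand within chr1:24611535-24616197 of GRCm38, a span of 4663 bases, and cover mt-Co1, mt-Co2, mt-Atp6, mt-Co3, mt-Nd3, mt-Nd4l and mt-Nd4 in whole or in part. The ends of 3 genes and of their copies are shown because these ends hold the only bases of these 3 genes at which gene and annotated copy differ. They are read from GENCODE M21 transcripts, 5′ to 3′ along the transcript, and capitals mark the bases that the annotated copy lacks. mt-Co2 ends at chrM:7637-7696 on the plus strand and Gm28661 at chr1:24614885-24614941 on the minus strand. mt-Co3 ends at chrM:9331-9390 (plus) and Gm28437 at chr1:24613189-24613247 (minus). mt-Atp6 ends at chrM:8548-8607 (plus) and Gm10925 at chr1:24613974-24614030 (minus).
mt-Co2: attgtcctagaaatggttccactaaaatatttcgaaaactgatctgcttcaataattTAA
Gm28661: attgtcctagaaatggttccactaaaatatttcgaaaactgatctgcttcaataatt
mt-Co3: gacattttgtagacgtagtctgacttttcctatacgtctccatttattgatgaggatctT
Gm28437: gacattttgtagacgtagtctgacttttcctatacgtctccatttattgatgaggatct
mt-Atp6: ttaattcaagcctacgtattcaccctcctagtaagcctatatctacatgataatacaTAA
Gm10925: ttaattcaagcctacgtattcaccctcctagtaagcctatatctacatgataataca

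In these 3 pairs the copy matched 681 of the 684 bases of mt-Co2, 783 of the 784 bases of mt-Co3 and 678 of the 681 bases of mt-Atp6, each at 100% identity. Within the matched bases, the copies of mt-Co1 and mt-Nd3 differ from them by 1 base each, shown in capitals below. Positions are counted from 1 at the 5′ end of the mitochondrial gene, and the mitochondrial base is given first. The copy Gm28438 matched 345 of the 348 bases of mt-Nd3 with the substitution T3C. The copy Gm29216 matched only the last 483 bases of mt-Co1 with the substitution A1066T. The match began at base 10 of the 492 bases of Gm29216. The stretches lie at chrM:9459-9491 (plus) for mt-Nd3, chr1:24613087-24613119 (minus) for Gm28438, chrM:6390-6423 (plus) for mt-Co1 and chr1:24616155-24616188 (minus) for Gm29216.
mt-Nd3: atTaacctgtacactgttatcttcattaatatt
Gm28438: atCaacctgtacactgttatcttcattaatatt
mt-Co1: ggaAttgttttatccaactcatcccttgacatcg
Gm29216: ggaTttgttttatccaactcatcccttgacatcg

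For most of these genes, counts were listed under both the mitochondrial entry and its copy. The 8 mitochondrial mRNAs and rRNAs without such an annotated copy had whole counts in every library. In the 6 pairs where both partners had counts, the entries carried fractions of a count, and the 2 partners summed to whole counts in all 8 libraries for mt-Atp6, mt-Co3, mt-Nd3 and mt-Nd4l (within 0.011 of a count). For mt-Co1 and mt-Co2 the sum was whole in all libraries once the more distant pseudogenes were added too. How the authors' software assigned reads that match both places is not stated in the sources used here.

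The share that stayed with the mitochondrial entry differed from gene to gene. mt-Co2, which encodes a catalytic-core subunit of cytochrome c oxidase, held 0.470% to 1.87% of the counts of its pair. mt-Co3, another core subunit of that enzyme, held 0.379% to 5.71%. The share was 11.2% to 15.999% for mt-Atp6, a membrane subunit of ATP synthase, and 16.6% to 23.3% for mt-Nd3, a core subunit of NADH dehydrogenase. mt-Nd4l, another core subunit of that complex, held 30.3% to 44.1% of its pair. In contrast, mt-Co1 held 99.985% to 99.999% of its pair, and mt-Nd4 held 100% although 876 of its bases are present at 100% identity in Gm28439, which had 0 counts in every library.

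**Figure D1:**
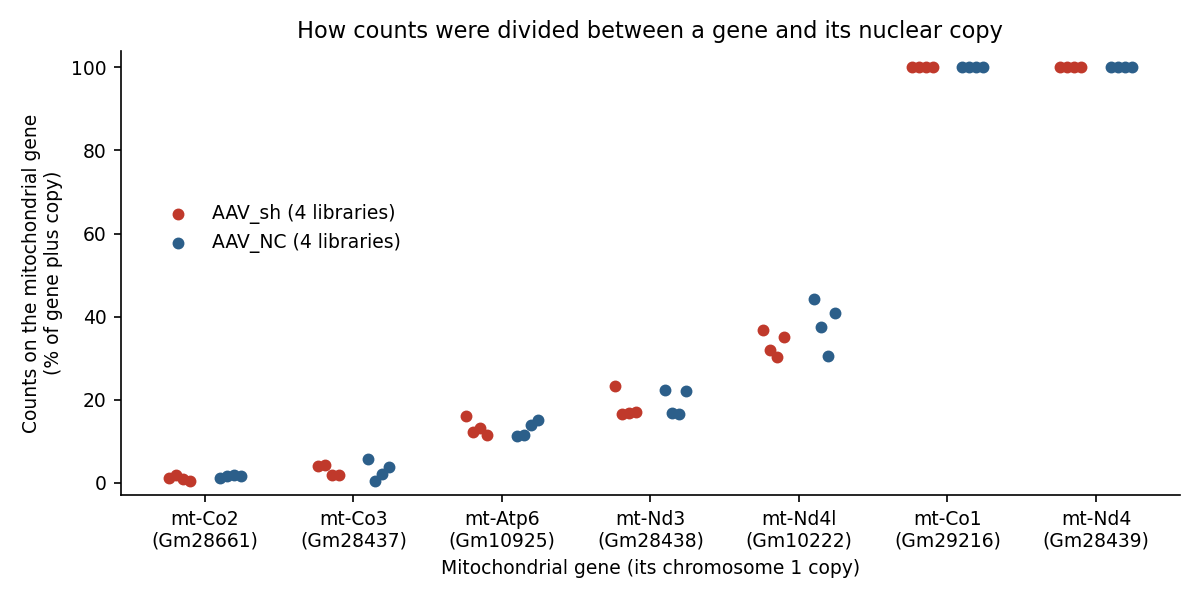
Share of the estimated counts of a gene and its chromosome 1 copy that was listed under the mitochondrial gene, in percent, with 1 point for each library. The points of mt-Co2 and mt-Co3 lie at or below 5.71% and those of mt-Co1 and mt-Nd4 at or near 100%, with AAV_sh and AAV_NC libraries intermixed.

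The entry of mt-Co3 varied the most between libraries among the 15 mitochondrial mRNAs and rRNAs. It had 4740, 4723, 1702 and 2142 estimated counts in AAV_sh libraries 1 to 4, against 6663, 415, 2574 and 5152 in AAV_NC libraries 1 to 4. The lowest and the highest value both belonged to AAV_NC. The copy Gm28437 had 114710, 108254, 84819 and 115922 counts in AAV_sh libraries 1 to 4, and 109984, 109155, 123531 and 133265 in AAV_NC libraries 1 to 4. As a share of the library's counts, the mt-Co3 entry varied 16.3-fold between the lowest and highest of the 8 libraries, and the sum of both entries varied 1.28-fold.

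The same held, to a lesser extent, for mt-Co2. Its entry had 1488, 1954, 795 and 568 counts in AAV_sh libraries 1 to 4, against 1217, 1784, 2186 and 1912 in AAV_NC libraries 1 to 4. AAV_sh libraries 3 and 4 were below every AAV_NC library and the other 2 lay within the AAV_NC range. The copy Gm28661 had 85516 to 120443 counts in the 8 libraries. The range of these shares was 3.62-fold for the mt-Co2 entry and 1.26-fold for the sum, 1.76-fold and 1.31-fold for mt-Atp6, 2.20-fold and 1.68-fold for mt-Nd3, and 1.81-fold and 1.70-fold for mt-Nd4l. Values are therefore given below both as deposited and with the copies added to their mitochondrial genes. The sum cannot tell mitochondrial from nuclear transcripts, and it was chosen after these values were seen.

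**Figure D2:**
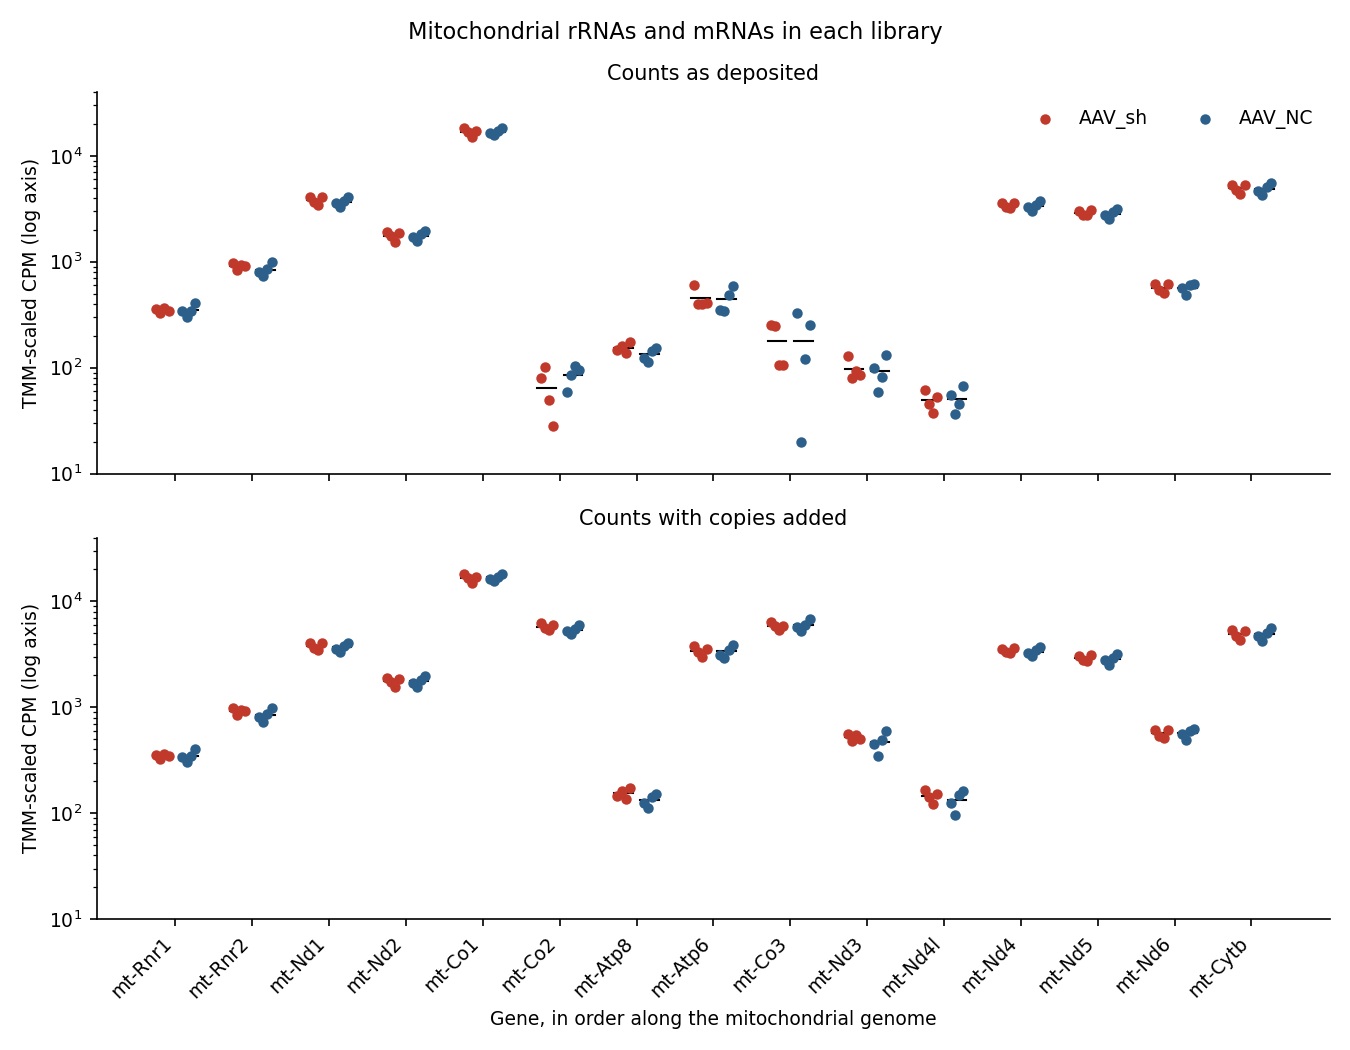
CPM after TMM scaling of the 15 mitochondrial rRNAs and mRNAs in each of the 8 libraries, in order along the mitochondrial genome, with counts as deposited (upper panel) and with the chromosome 1 copies added (lower panel); points are libraries, black lines are group means and the vertical axes are logarithmic. The scattered points of mt-Co2, mt-Atp6, mt-Co3 and mt-Nd3 in the upper panel draw together and lie higher in the lower one. Those of mt-Nd4l lie higher with little change in spread (1.81-fold and 1.70-fold as shares of library counts). AAV_sh and AAV_NC points overlap for every gene.

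Levels per length were compared as TPM, transcripts per 1000000, computed from the counts and the lengths in the table. Full lengths were used, with no correction for short genes. mt-Co1, which encodes the subunit of cytochrome c oxidase where oxygen is reduced, had the highest TPM of the 57010 genes, at 26642 ± 1484 TPM in AAV_sh and 26865 ± 1074 TPM in AAV_NC (SD, n = 4 each). mt-Cytb, the mitochondrial subunit of the cytochrome bc1 complex, followed among the mitochondrial genes as deposited with 10620 ± 892 TPM in AAV_sh and 10532 ± 902 TPM in AAV_NC (SD, n = 4 each). mt-Nd1, a membrane subunit of NADH dehydrogenase, had 9797 ± 650 TPM in AAV_sh and 9446 ± 582 TPM in AAV_NC (SD, n = 4 each).

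Whether the copies were added decided where the other genes of cytochrome c oxidase and ATP synthase stood. As deposited, mt-Co2 had 233 ± 115 TPM in AAV_sh and 309 ± 64.8 TPM in AAV_NC (SD, n = 4 each), the lowest of the 15 and rank 517 of all genes by mean TPM. Together with its copy it had 20887 ± 1042 TPM in AAV_sh and 19426 ± 1138 TPM in AAV_NC, rank 2 of all genes. mt-Co3 moved to rank 3 with its copy added, against rank 197 as deposited, and mt-Atp6 to rank 4, against rank 42. The entries Gm28661 and Gm28437 stood at ranks 2 and 3 as deposited, and Gm10925 stood at rank 5.

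With the copies added, the order of mean TPM was mt-Co1, mt-Co2, mt-Co3, mt-Atp6, mt-Cytb, mt-Nd1, mt-Nd4, mt-Nd2, mt-Nd5, mt-Nd3, mt-Nd6, mt-Atp8, mt-Rnr2, mt-Nd4l and mt-Rnr1. Of the 14 neighbouring pairs in this order, 9 had TPM ranges over the 8 libraries that overlapped and 5 did not. The pairs that stood apart were mt-Co1 above mt-Co2, mt-Co3 above mt-Atp6, mt-Nd1 above mt-Nd4, mt-Nd4 above mt-Nd2, and mt-Nd6 above mt-Atp8. In 12 of the 14 pairs the order was the same within every library. The exceptions were mt-Nd2 with mt-Nd5 and mt-Nd5 with mt-Nd3, each in the opposite order in 1 library.

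**Figure D3:**
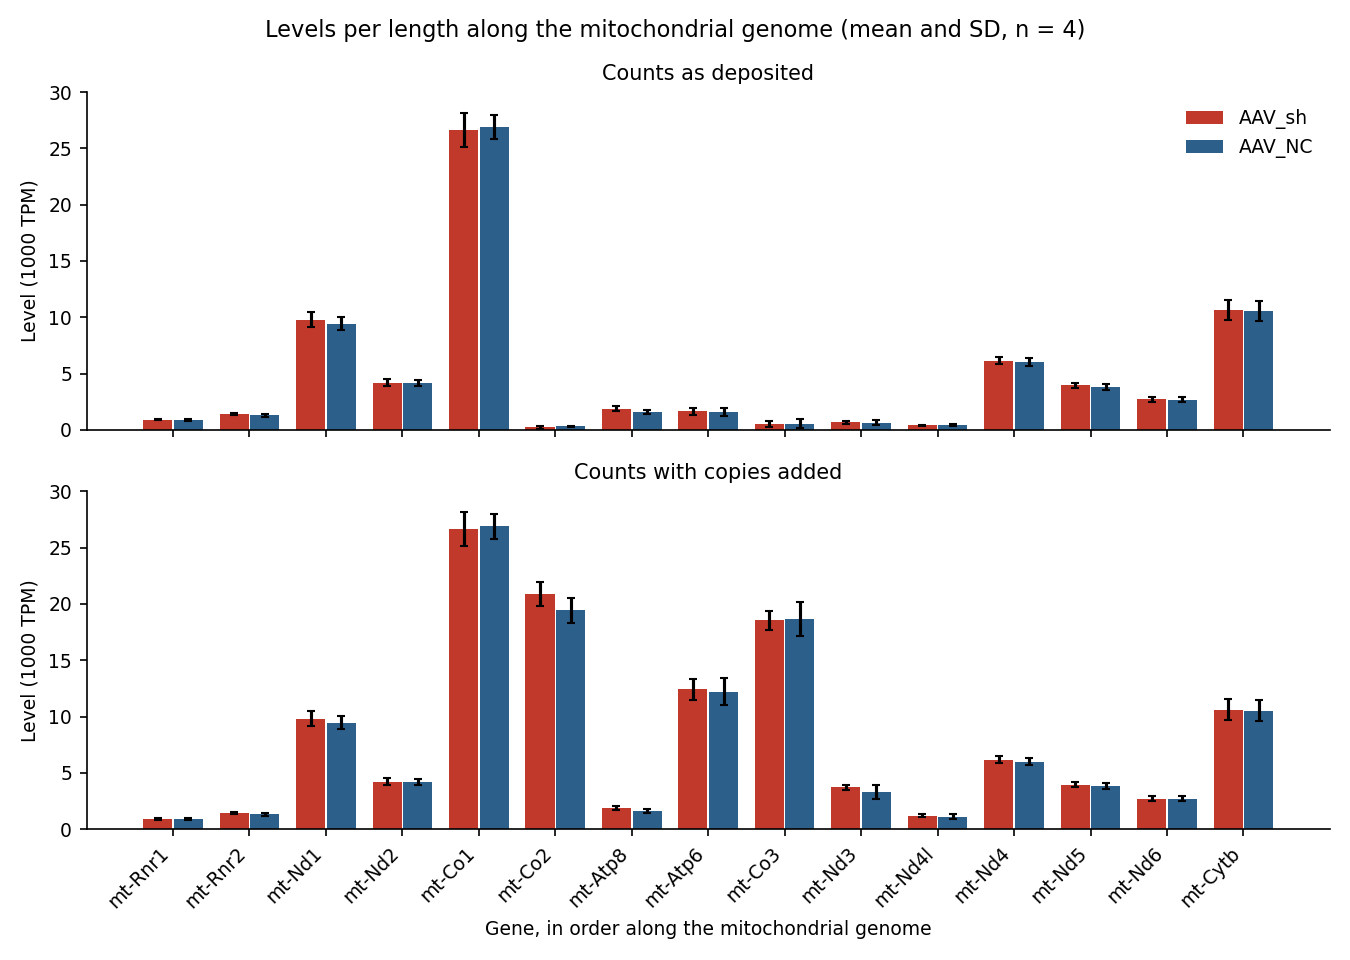
Mean TPM (in units of 1000) of the 15 mitochondrial rRNAs and mRNAs in order along the mitochondrial genome, with counts as deposited (upper panel) and with the chromosome 1 copies added (lower panel); bars are group means and error bars SDs (n = 4 each). Adding the copies brings mt-Co2, mt-Co3 and mt-Atp6 above mt-Cytb, and moves mt-Nd3 and mt-Nd4l by less.

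Grouped by the complex they encode, the 3 cytochrome c oxidase genes (complex IV) made up 39.5% ± 1.05 of mitochondrial mRNA TPM in AAV_sh and 40.4% ± 0.858 in AAV_NC as deposited (SD, n = 4 each). With the copies added these shares were 53.9% ± 0.640 in AAV_sh and 54.2% ± 0.782 in AAV_NC. The 7 genes of NADH dehydrogenase (complex I) made up 40.2% ± 0.846 in AAV_sh and 39.6% ± 0.186 in AAV_NC as deposited, and 25.9% ± 0.500 in AAV_sh and 25.5% ± 0.400 in AAV_NC with the copies added. The 2 ATP synthase genes (complex V) made up 5.06% ± 0.134 in AAV_sh and 4.65% ± 0.518 in AAV_NC as deposited, and 11.6% ± 0.249 in AAV_sh and 11.5% ± 0.346 in AAV_NC with the copies added. For each of these complexes, the means of AAV_sh and AAV_NC lay closer to each other than the values with and without the copies did.

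The AAV_sh libraries were then set against the AAV_NC libraries. Mitochondrial mRNAs took 3.76%, 3.43%, 3.17% and 3.64% of all counts in AAV_sh libraries 1 to 4, against 3.39%, 3.15%, 3.53% and 3.83% in AAV_NC libraries 1 to 4. The means were 3.50% ± 0.258 in AAV_sh and 3.48% ± 0.284 in AAV_NC (SD, n = 4 each), a difference smaller than either SD, and the groups overlapped. With the rRNAs and the chromosome 1 copies included, the share was 5.12% ± 0.352 in AAV_sh and 5.03% ± 0.433 in AAV_NC.

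**Figure D4:**
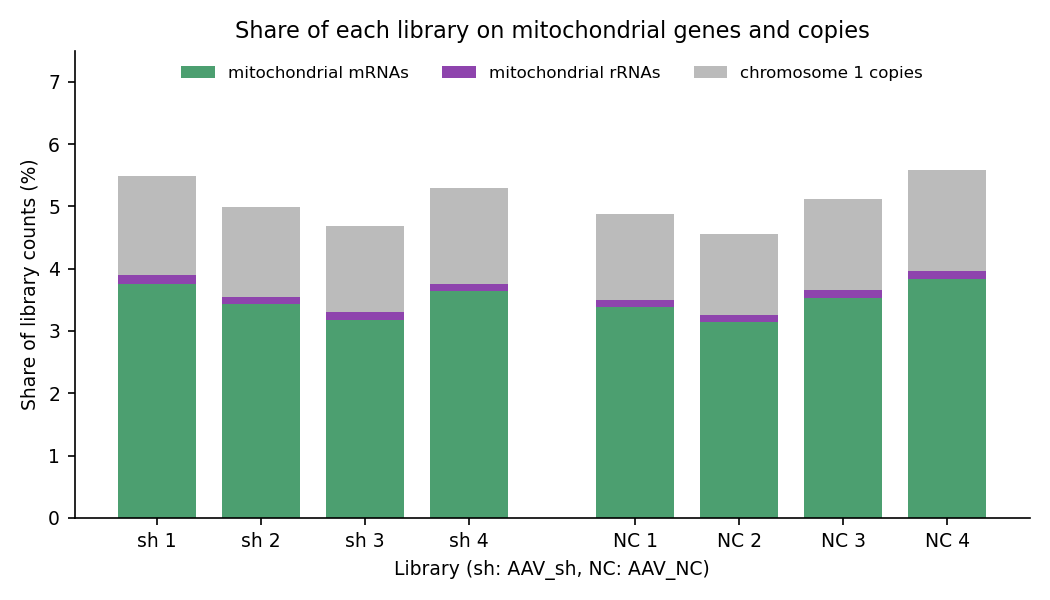
Percent of the estimated counts of each library on mitochondrial mRNAs, mitochondrial rRNAs and chromosome 1 copies, stacked, with 1 bar for each AAV_sh (sh) and AAV_NC (NC) library. The mRNA part spans 3.17% to 3.76% in AAV_sh and 3.15% to 3.83% in AAV_NC, so the groups overlap.

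None of the 15 mitochondrial genes that passed the filter on low values was called between AAV_sh and AAV_NC at an adjusted p under 0.05 (edgeR's quasi-likelihood test, Benjamini-Hochberg adjustment over 16118 genes). The background was 0.062% of the genes tested, or 10 genes. At an unadjusted p under 0.05, 1 of the 15 passed in edgeR, against 5.27% of all genes tested, and DESeq2 and limma called 0 of the 15 after adjustment. In none of the 15 did the groups stand apart without overlap, against 3.31% of all genes tested. With the copies added, 0 of 15 were called (background 0.0621%), 1 had an unadjusted p under 0.05 (background 5.28%) and in 0 the groups did not overlap (background 3.32%).

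The 13 mRNAs had a median log2 fold change (AAV_sh over AAV_NC) of 0.0067, beside 0.0039 over all genes tested, with 8 above 0 and 5 below. The median turned on single libraries: it was −0.055 without AAV_NC library 2, with 1 of the mRNAs above 0, and 0.087 without AAV_NC library 4, with 12 above 0. It also fell below 0 without AAV_sh library 1 and without AAV_NC library 1, at −0.040 and −0.0028. For the 8 genes without an annotated copy, mt-Atp8 among them, log2 fold changes ran from −0.0039 to 0.21 with SEs of 0.071 to 0.093. Their approximate 95% intervals together covered −0.20 to 0.44. Once the copies were added, the intervals of all 15 genes together covered −0.21 to 0.45. As deposited they covered −1.35 to 1.31, both limits being those of mt-Co3.

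The gene with the largest of these log2 fold changes was mt-Atp8, a small ATP synthase subunit at chrM:7766-7969. After TMM scaling, a correction of library size used for the CPM of single genes here and below, it had 146, 161, 137 and 175 CPM in AAV_sh libraries 1 to 4, against 125, 113, 143 and 153 in AAV_NC libraries 1 to 4. AAV_sh libraries 2 and 4 were above every AAV_NC library and the other 2 were within the AAV_NC range. Its log2 fold change of 0.21 ± 0.093 (SE) had an unadjusted p of 0.0384 and an adjusted p of 0.918 in edgeR's test. It no longer had an unadjusted p under 0.05 without AAV_sh library 2 or 4, or without AAV_NC library 1 or 2. With any 1 library left out, its log2 fold change was 0.14 to 0.28. Its approximate interval included 0 because it was computed with the 6 residual degrees of freedom, fewer than edgeR's test uses. The last 43 bases of mt-Atp8 are also the first of mt-Atp6, on the same strand. The sources used here do not say how reads across these bases were counted. The bases are therefore shown here in capitals within the last bases of mt-Atp8 (chrM:7910-7969, plus strand).
mt-Atp8 last bases: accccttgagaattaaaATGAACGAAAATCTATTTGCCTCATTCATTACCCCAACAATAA

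The other ATP synthase gene, mt-Atp6, had a log2 fold change of 0.032 ± 0.17 (SE) as deposited and 0.020 ± 0.090 with its copy added. Although both genes are read from 1 shared mRNA, their levels per length were unequal. mt-Atp8 had 1878 ± 218 TPM in AAV_sh and 1612 ± 175 TPM in AAV_NC (SD, n = 4 each), and mt-Atp6 with its copy added had 12420 ± 948 TPM in AAV_sh and 12202 ± 1186 TPM in AAV_NC. No copy of mt-Atp8 on chromosome 1 is annotated. Yet it starts between mt-Co2 and mt-Atp6, which both have copies there. The bases between these copies, Gm28661 from chr1:24614885 and Gm10925 up to chr1:24614651, were not compared with mt-Atp8. Only annotated transcripts were searched. mt-Atp8 is 204 bases long, against reads of 150 bases, and shares 43 bases with mt-Atp6. The part of its short length, its shared bases or an unannotated copy in this difference of levels was not tested.

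mt-Co2 had the largest negative log2 fold change as deposited, −0.40 ± 0.28 (SE, adjusted p = 0.989, edgeR), and with its copy added the value was 0.0997 ± 0.072 (adjusted p = 0.989, edgeR). The sign of the mt-Co2 difference thus depended on whether the copy was added. In CPM, mt-Co2 with its copy had 6207, 5547, 5350 and 6001 in AAV_sh libraries 1 to 4, against 5213, 4868, 5511 and 5972 in AAV_NC libraries 1 to 4. AAV_sh libraries 1 and 4 exceeded every AAV_NC library, and the others fell within the AAV_NC range. mt-Co1 had a log2 fold change of −0.016 ± 0.068 and mt-Co3 of −0.016 ± 0.54, which was −0.013 ± 0.079 with its copy added.

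Among the genes of NADH dehydrogenase, log2 fold changes as deposited were 0.048 ± 0.074 (SE) for mt-Nd1, 0.00013 ± 0.078 for mt-Nd2, 0.056 ± 0.20 for mt-Nd3, 0.030 ± 0.067 for mt-Nd4, −0.044 ± 0.17 for mt-Nd4l, 0.034 ± 0.071 for mt-Nd5 and −0.0007 ± 0.080 for mt-Nd6. With the copies added, mt-Nd3 had 0.15 ± 0.12 and mt-Nd4l 0.13 ± 0.13, so that the sign for mt-Nd4l turned. mt-Cytb had 0.0067 ± 0.086. Adjusted p-values of the 13 mRNAs were 0.918 or more in edgeR's test.

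mt-Nd6 is the only mRNA of the minus strand, and it shares 14 bases with mt-Nd5 on the other strand. The sources used here do not say whether the authors counted by strand, or how reads across these 14 bases were counted. The TPM of mt-Nd5 over that of mt-Nd6 was 1.46 ± 0.0509 in AAV_sh and 1.43 ± 0.0364 in AAV_NC (SD, n = 4 each). This ratio overlapped between the groups.

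**Figure D5:**
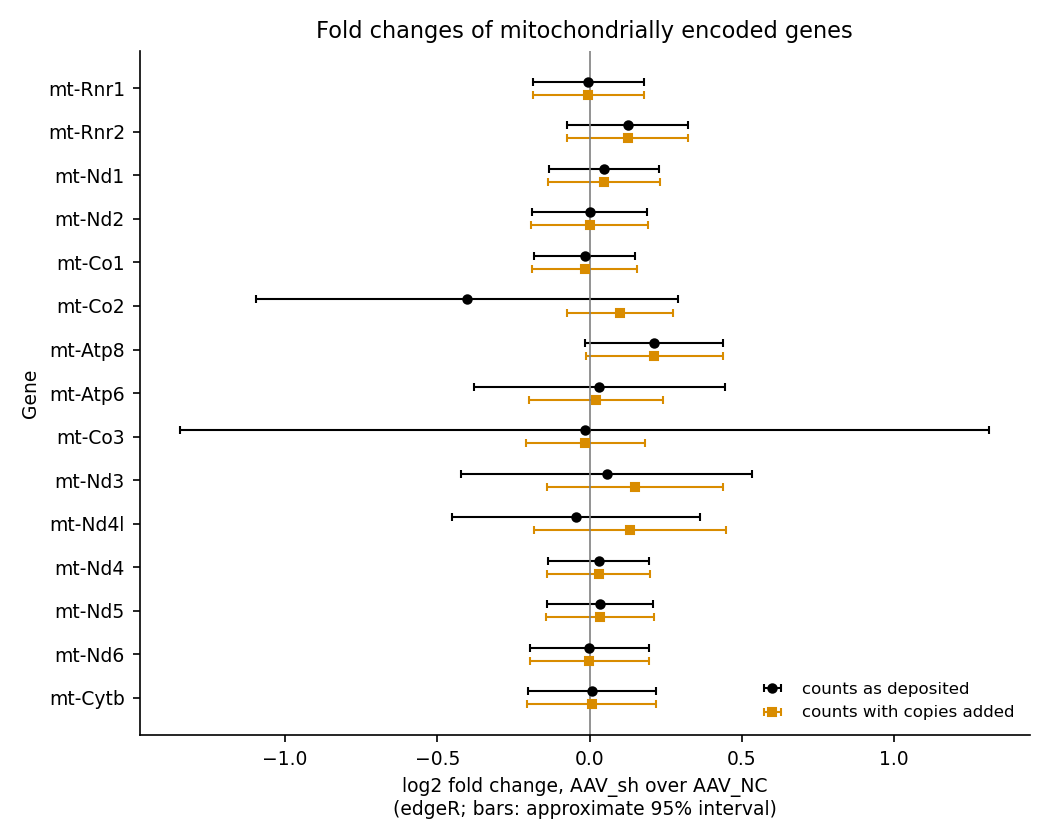
Log2 fold change (AAV_sh over AAV_NC) of the 15 mitochondrial mRNAs and rRNAs with approximate 95% intervals, as deposited and with the chromosome 1 copies added. Every interval includes 0; the interval of mt-Co3 as deposited is −1.35 to 1.31 and narrows to −0.21 to 0.18 when its copy is added.

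The rRNAs mt-Rnr1 and mt-Rnr2 form the small and large subunits of the mitochondrial ribosome. Together they had 3.41 to 4.14 counts per 100 counts on all mitochondrial mRNAs in AAV_sh and 3.30 to 3.61 in AAV_NC. AAV_sh library 3 had the highest of these ratios at 4.14, and the other AAV_sh libraries lay within the AAV_NC range. mt-Rnr1 had 357, 329, 362 and 346 CPM in AAV_sh libraries 1 to 4, against 340, 304, 346 and 407 in AAV_NC libraries 1 to 4. mt-Rnr2 had 974.7, 843, 941 and 921 CPM in AAV_sh libraries 1 to 4, against 801, 731, 855 and 987 in AAV_NC libraries 1 to 4. The groups overlapped for both, with log2 fold changes of −0.0039 ± 0.074 for mt-Rnr1 and 0.12 ± 0.081 for mt-Rnr2 (SE; adjusted p = 0.999 and 0.972, edgeR).

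The ratio between the 2 rRNAs did not overlap between the groups, though it did not pass adjustment over all ratios computed. TPM of mt-Rnr1 over mt-Rnr2 was 0.607, 0.646, 0.637 and 0.623 in AAV_sh libraries 1 to 4, against 0.703, 0.689, 0.671 and 0.683 in AAV_NC libraries 1 to 4. Every AAV_sh library was below every AAV_NC library, with means of 0.628 ± 0.0171 in AAV_sh and 0.687 ± 0.0134 in AAV_NC (SD, n = 4 each). It was 1 of 105 ratios between pairs of the 15 genes that were computed, and as deposited it was the only one whose groups did not overlap (0.952%), against 6 of 105 (5.71%) with the copies added. The exact two-sided permutation p of 0.0286 is the smallest that 4 against 4 libraries allow. After Benjamini-Hochberg adjustment over the 105 ratios it was 0.75 as deposited and 0.36 with the copies added. Without any difference between the groups, a single ratio stands apart with that same probability of 0.0286. The share as deposited, 0.952%, did not exceed it, and the share with the copies added, 5.71%, did. The 105 ratios share genes and are not independent.

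The 22 tRNAs were nearly absent from the counts. The 8 libraries together held 10 tRNA counts, 5 in AAV_sh and 5 in AAV_NC, and 19 of the 22 tRNAs had 0 counts in every library. mt-Ts1, a serine tRNA on the minus strand at chrM:6870-6938, had 2, 0, 0 and 3 counts in AAV_sh libraries 1 to 4, against 2, 0, 0 and 0 in AAV_NC libraries 1 to 4. It is shown whole because it held 7 of the 10 counts.
mt-Ts1: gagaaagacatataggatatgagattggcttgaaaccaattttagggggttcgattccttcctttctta

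mt-Ts1 shares 3 bases with mt-Co1, which lies on the opposite strand and had 240760 to 371019 counts in the 8 libraries. The proline tRNA mt-Tp had 2 counts in AAV_NC library 1, and the glutamine tRNA mt-Tq had 1 count in AAV_NC library 2. A count of 0 allows up to 3 counts, which is 0.140 to 0.187 CPM in these libraries and covers counting error only. No tRNA passed the filter on low values, so none was tested. The tRNA genes are 59 to 75 bases long, shorter than the 150-base reads. Of 178 genes for other structural RNAs that carry no poly(A) tail, 160 had 0 counts in every library, and their summed level was 7.61 to 8.36 CPM in AAV_sh and 7.02 to 9.52 in AAV_NC. The labels describe total RNA and name no selection step.

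Nuclear genes that act on mitochondrial RNA were examined as lists, and DESeq2 and limma called no gene of the lists described here apart from Esrrb, a regulator of mitochondrial biogenesis. Over all genes tested, edgeR's test called 0.062%, and 5.27% had an unadjusted p under 0.05. With so few genes called anywhere, none called in a list says little about that list. Of 19 genes tested for transcription and replication of mitochondrial DNA, none was called in edgeR's test, with 10 above 0, 9 below and a median log2 fold change of 0.0086. Polg2, the accessory subunit of the mitochondrial DNA polymerase, had 67.5 ± 3.20 TPM in AAV_sh and 64.6 ± 7.58 TPM in AAV_NC (SD, n = 4 each). Of 26 genes for processing, stability and decay of mitochondrial RNA, none was called, with 10 above 0, 16 below and a median of −0.011. Grsf1, which binds mitochondrial RNA in RNA granules, had 116 ± 6.34 TPM in AAV_sh and 119 ± 4.42 TPM in AAV_NC.

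The same was found for the genes of mitochondrial translation. None of 21 genes for rRNA and tRNA modification (median 0.016), none of 22 for aminoacyl-tRNA synthetases (median 0.0071) and none of 78 for mitochondrial ribosomal proteins (median −0.014) was called in edgeR's test. At an unadjusted p under 0.05 the counts were 0, 1 and 0, and 2 of the 26 RNA processing genes and 0 of the 19 transcription and replication genes. The share over all genes tested was 5.27%. Trnt1, which adds the CCA end to tRNAs, had 75.5 ± 5.97 TPM in AAV_sh and 75.2 ± 4.46 TPM in AAV_NC (SD, n = 4 each). Mrpl42, a mitochondrial ribosomal protein, had 106 ± 7.38 TPM in AAV_sh and 96.3 ± 4.90 TPM in AAV_NC, with an adjusted p of 0.971 in edgeR's test.

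Of 79 nuclear-encoded respiratory chain subunits tested, 45 had log2 fold changes above 0 and 34 below, with a median of 0.014. These subunits assemble with the 13 mitochondrial ones. None was called and 0 had an unadjusted p under 0.05 in edgeR's test, against 0.062% and 5.27% of all genes tested. Atp5b, the catalytic subunit of ATP synthase, had 1187 ± 29.4 TPM in AAV_sh and 1205 ± 11.5 TPM in AAV_NC (SD, n = 4 each). Cox4i1, a nuclear subunit of cytochrome c oxidase, had 611 ± 55.1 TPM in AAV_sh and 597 ± 45.1 TPM in AAV_NC. Both were far below the level of mt-Co1.

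Among 12 regulators of mitochondrial biogenesis, none was called and 2 had an unadjusted p under 0.05 in edgeR's test, against 5.27% of all genes tested. Esrrb, a nuclear receptor related to the estrogen receptors that is made in mouse rods, had 238 ± 12.4 TPM in AAV_sh and 201 ± 4.80 TPM in AAV_NC (SD, n = 4 each), with a log2 fold change of 0.24 ± 0.046 (SE) and an adjusted p of 0.127 in edgeR's test. DESeq2, which called 45 of the 16118 genes, called Esrrb with an adjusted p of 2.94e-05 and the same log2 fold change of 0.24, and limma did not call it. Ppargc1b, a coactivator of genes for oxidative metabolism, had 78.5 ± 5.84 TPM in AAV_sh and 88.0 ± 8.85 TPM in AAV_NC, with a log2 fold change of −0.17 ± 0.062 and an adjusted p of 0.822. None of 15 genes of the mitochondrial unfolded protein response and mitophagy was called (0 at an unadjusted p under 0.05). Pink1, a kinase that marks damaged mitochondria, had 210.2 ± 14.8 TPM in AAV_sh and 217 ± 13.1 TPM in AAV_NC.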

How the data were processed

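Total RNA of 8 retina samples was sequenced as 150-base paired reads, per the labels. The authors deposited a table named for TPM whose values are estimated counts per gene: libraries sum to 16.03 to 21.4 M, and 90.6% to 91.9% of entries are whole. Per the submitters' processing notes Bowtie 0.12.2 and mm9 were named without a role, and the sources used here name no counting tool. The authors' 2 columns of group means were not used.

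Counts were rounded and tested with edgeR 4.0.16 in R 4.3.3 (TMM scaling, quasi-likelihood, genes at 1 TPM or more in 4 or more of the 8 libraries, Benjamini-Hochberg adjusted p under 0.05). DESeq2 1.42.0 and limma 3.58.1 were alternatives. CPM of single genes were TMM-scaled, and summed CPM used the library's total count, and approximate 95% intervals used the SE and the t distribution. Fitting was tested on simulated data. TPM was computed from counts and the table's lengths.

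Copies were found with blastn 2.17.0 against GENCODE M21 transcripts (GRCm38): at least 99% identity over at least 80% of the copy. All mt- genes were accounted for, and genes named from other lists were taken from the members called or, with none called, from the 4 highest in mean TPM. The members and lists were chosen with earlier results of these data known.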

Additional observations from a re-analysis of the deposited data

Results flagged for a closer look

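One mitochondrial value stood far from the rest of its group. In AAV_sh library 1, mt-Atp6 as deposited had 606 TMM-scaled counts per 1000000 (CPM), against 398 to 408 in the other AAV_sh libraries. With the counts of Gm10925 added, mt-Atp6 had 3788 CPM in AAV_sh library 1 and 3008 to 3575 in the other AAV_sh libraries, a gap no longer beyond Dixon's critical value for 4 samples. Of the groups checked, 54 in all, this was the only one past that value, and chance alone marks about 1 group in 20.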

How the results depend on the processing

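The count of mitochondrial genes called was 0 under each alternative run: no filter, a mean of at least 5 TPM, median-of-ratios scaling, scaling without the mitochondrial genes, DESeq2, limma with either pseudocount, the replicate block, each library left out, and the copies added. The smallest adjusted p of any of these genes was 0.391. Of 255 values of single genes, 209 kept their direction and 46 turned, 30 of them with a library left out; the cause was not tested. With log2(TPM + 1) and log2(TPM + 0.1) in limma, the log2 fold changes became 0.0070 and 0.0070 for mt-Rnr1, 0.45 and 0.46 for mt-Co3, and 0.0042 and 0.0042 for mt-Nd6. For mt-Nd2 the value was −0.0062 without a filter, −0.0004 with median-of-ratios scaling, −0.0017 with scaling without mitochondrial genes and −0.0004 with DESeq2. For mt-Nd6 it was 0.0019 at a mean of at least 5 TPM. With the copies added, which was chosen after seeing the data, mt-Co2 had 0.0997 and mt-Nd4l 0.13.

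The replicate numbers showed no sign of pairing the samples: deviations of same-numbered libraries correlated at 0.0068, −0.0070, −0.031 and −0.18. Those of other-numbered libraries correlated at −0.16 to 0.19. With 4 libraries in each group, these values cannot exclude a pairing. With the replicate block 0 mitochondrial genes were called, the median of the mRNAs was 0.032, and mt-Rnr1 had 0.0029, mt-Co3 0.21 and mt-Nd6 0.0004.

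With each library left out in turn, ranges were −0.055 to 0.087 for the median of the mRNAs, −0.065 to 0.077 for mt-Rnr1, −0.0001 to 0.10 for mt-Nd1, −0.053 to 0.058 for mt-Nd2, −0.059 to 0.033 for mt-Co1, −0.71 to −0.15 for mt-Co2, −0.14 to 0.20 for mt-Atp6, −0.39 to 0.44 for mt-Co3, −0.11 to 0.27 for mt-Nd3, −0.018 to 0.081 for mt-Nd4, −0.18 to 0.11 for mt-Nd4l, −0.021 to 0.087 for mt-Nd5, −0.066 to 0.049 for mt-Nd6, −0.055 to 0.074 for mt-Cytb, 0.062 to 0.21 for mt-Rnr2 and 0.14 to 0.28 for mt-Atp8. The number of all genes called was 10 as reported, 157 of 29694 without a filter, 1 at a mean of at least 5 TPM and 45 with DESeq2. In limma it was 0 and 9 at the larger and smaller pseudocount. With so few genes called in any run, a count of 0 mitochondrial genes says little about their stability. With 1 library left out, the number of all genes called was 0 without AAV_NC library 1 or 2 and 1 without AAV_NC library 4. It was 58 without AAV_NC library 3 (52 of them lower in AAV_sh) and 7 to 15 without an AAV_sh library.

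For the tRNAs listed at 0, a count of 0 allows up to 3 counts per library. Depth was not varied.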

Other observations

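With the copies added, 6 of the 105 ratios between pairs of the 15 mitochondrial genes had groups that did not overlap (5.71%). One was mt-Rnr1 over mt-Rnr2, and the other 5 all contained mt-Co2, set against mt-Nd1, mt-Nd2, mt-Co1, mt-Co3 and mt-Nd4. These 5 share a gene and are not independent. TPM of mt-Co1 over mt-Co2 was 1.29, 1.33, 1.24 and 1.25 in AAV_sh libraries 1 to 4, against 1.39, 1.42, 1.38 and 1.36 in AAV_NC libraries 1 to 4. The exact two-sided permutation p was 0.0286, and 0.36 after Benjamini-Hochberg adjustment over the 105 ratios. As deposited, where mt-Co2 held 0.470% to 1.87% of its pair, the groups of all 5 overlapped.

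Mitochondrial genes also matched 10 more distant nuclear pseudogenes in the annotation at 90.7% to 97.6% identity. None of the 10 averaged more than 1.96 counts over the 8 libraries, and 4 had none. The 7 copies on chromosome 1 held 1.49% ± 0.0934 of all counts in AAV_sh and 1.44% ± 0.136 in AAV_NC (SD, n = 4 each). Of these 7, 6 were tested on their own and 0 were called by edgeR's test (0 at an unadjusted p under 0.05), with adjusted p of 0.953 or more.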
